A study of Mus musculus with 6 samples.

Results

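AMPA and NMDA receptors are glutamate-gated ion channels, and the expression of their subunit genes was followed in neurospheres, the floating spheres that neural stem cells and their progeny form in culture. The genes were given by name as 10 subunits, Gria1 to Gria4 for the AMPA receptor and Grin1, Grin2a to Grin2d and Grin3a for the NMDA receptor. A probe set naming 1 gene was found for 9 of them among 22180 genes tested, 4 AMPA and 5 NMDA subunits, and Grin1 was not analysed here. The MG group held cultures from 3 offspring of CD1 females, an outbred stock, injected intraperitoneally with 0.5 mg/kg MG, which the series title lets one read as methylglyoxal, a reactive by-product of glycolysis. The PBS group held cultures from 3 offspring of CD1 females injected with PBS. Both groups shared everything else that the labels give: 2 injections a day from gestational day 12 until birth, offspring aged 2 months, cells from the subependymal region of the brain, and 7 days of culture with 20 ng/ml EGF and 10 ng/ml FGF2. Titles call the cultures primary and descriptions call them secondary. The labels do not say whether animals of a group were littermates, so a difference between litters and one between injections cannot be told apart.

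An AMPA receptor is a tetramer of GluA1 to GluA4, encoded by Gria1 to Gria4, and carries most fast excitatory transmission. The GluA2 subunit, once its transcript is edited, makes the channel nearly impermeable to calcium. An NMDA receptor combines the obligatory GluN1 subunit, encoded by Grin1, with GluN2 or GluN3 subunits, needs a co-agonist as well as glutamate, and passes calcium. Outside neurons, these receptors are found on oligodendrocyte precursors, astrocytes and immature cells of the germinal zones, where glutamate can act on division, migration and survival. The question set by the design is which subunits the progenitor cultures expressed and how their levels after MG compared with those after PBS.

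The start regions of 4 subunit genes are shown because they pair an AMPA gene that was steady across the cultures (Gria2) with one that was not (Gria4), and a GluN2 gene above background (Grin2c) with one that was not (Grin2d). Each is a RefSeq window of GRCm38.p6, all on the minus strand, from 250 bases before to 50 after the annotated start, written 5′ to 3′. Capitals mark the GC box, GGGCGG, on either strand. The windows are chr3:80802786-80803085 for Gria2, chr9:4796185-4796484 for Gria4, chr11:115267194-115267493 for Grin2c and chr7:45866632-45866931 for Grin2d.
Gria2: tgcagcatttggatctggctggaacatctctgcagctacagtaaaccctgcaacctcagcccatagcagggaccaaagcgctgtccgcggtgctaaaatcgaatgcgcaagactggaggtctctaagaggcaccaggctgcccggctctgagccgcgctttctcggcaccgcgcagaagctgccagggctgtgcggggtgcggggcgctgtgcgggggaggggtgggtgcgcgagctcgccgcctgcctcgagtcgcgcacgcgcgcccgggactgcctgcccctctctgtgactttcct
Gria4: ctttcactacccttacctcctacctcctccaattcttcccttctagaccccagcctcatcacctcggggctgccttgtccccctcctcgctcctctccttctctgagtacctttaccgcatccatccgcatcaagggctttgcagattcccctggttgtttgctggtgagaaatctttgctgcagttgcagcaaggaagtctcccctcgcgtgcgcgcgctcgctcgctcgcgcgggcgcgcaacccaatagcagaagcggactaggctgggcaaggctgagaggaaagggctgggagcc
Grin2c: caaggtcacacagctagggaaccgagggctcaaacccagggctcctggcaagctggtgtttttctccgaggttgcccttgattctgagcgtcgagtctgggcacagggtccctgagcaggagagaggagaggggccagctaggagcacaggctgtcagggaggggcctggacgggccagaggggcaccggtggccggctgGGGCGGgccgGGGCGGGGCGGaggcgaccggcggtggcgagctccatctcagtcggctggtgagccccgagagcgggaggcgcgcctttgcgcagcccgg
Grin2d: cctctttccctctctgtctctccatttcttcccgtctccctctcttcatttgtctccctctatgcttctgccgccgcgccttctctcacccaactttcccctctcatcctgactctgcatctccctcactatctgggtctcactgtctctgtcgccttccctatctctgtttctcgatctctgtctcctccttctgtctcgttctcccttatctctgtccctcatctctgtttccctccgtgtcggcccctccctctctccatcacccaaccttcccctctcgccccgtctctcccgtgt

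The window of Grin2c held the GC box at 3 places, 2 of them sharing 1 base, and those of Gria2, Gria4 and Grin2d held none. On either strand the GC box is in 35.7% of the 32851 windows of this length in the table. The Gria2 window held 26 CpG dinucleotides, that of Grin2c 22, that of Gria4 17 and that of Grin2d 12, where the median window held 7. Neither TTCAGCACC, the left part of the element bound by the repressor REST, nor TATAAA was found on either strand of the 4 windows. They are in 0.371% and 13.6% of all windows. Windows of Gria1, Gria3, Grin2a, Grin2b and Grin3a are not shown here.

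Levels were read against a reference of 5.03 on the log2 scale, the 95th percentile of the mean values of 1404 olfactory, vomeronasal and trace amine receptor genes, which are not expected to be expressed in these cultures. Of the genes tested, 13672 (61.6%) had both group means above it. The cultures carried the marks of their label, with 10 of 10 neural stem and progenitor genes above it. Also above it were 10 of 10 oligodendrocyte precursor, 8 of 9 astrocyte and 14 of 14 neuron markers. Some of these lay close to the reference level. Dcx among the neuron markers and Enpp6 among the precursor ones passed it on 4 of 6 arrays. Group means of Stmn2 were 5.43 in MG and 5.45 in PBS, and those of Slc32a1 5.35 in MG and 5.50 in PBS. Of the microglial markers 4 of 10 were above the reference level, Cx3cr1, P2ry12, Cd68 and C1qa, while Aif1, Tmem119 and Csf1r were among those below. Of the endothelial ones 2 of 8 were above it, Kdr and Flt1. The arrays numbered 3 stood apart in both groups. The mean of 19 replication and mitosis genes, relative to the 6 arrays, was -0.11, -0.25 and 0.43 in MG arrays 1, 2 and 3, and -0.38, -0.10 and 0.42 in PBS arrays 1, 2 and 3.

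All 4 AMPA subunit genes and Grin2b, Grin2c and Grin3a were above the reference level on every array, while Grin2a and Grin2d had both group means below it. That is 7 of 9, where 61.6% of all genes tested had both means above it. The group means of the same 7 were also above a stricter reference of 6.04, the 99th percentile of the receptor genes, as were all arrays of 6 of them, while Gria4 on MG array 3 lay just under it. After MG, none of the 9 subunits passed the adjusted test in limma, as none of the genes tested did (0%, with 712 at an unadjusted p under 0.05). MG and PBS values overlapped for every subunit, where 7.34% of genes tested had groups without overlap. Values of different genes are not ranked here, because probe sets differ in brightness.

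**Figure D1:**
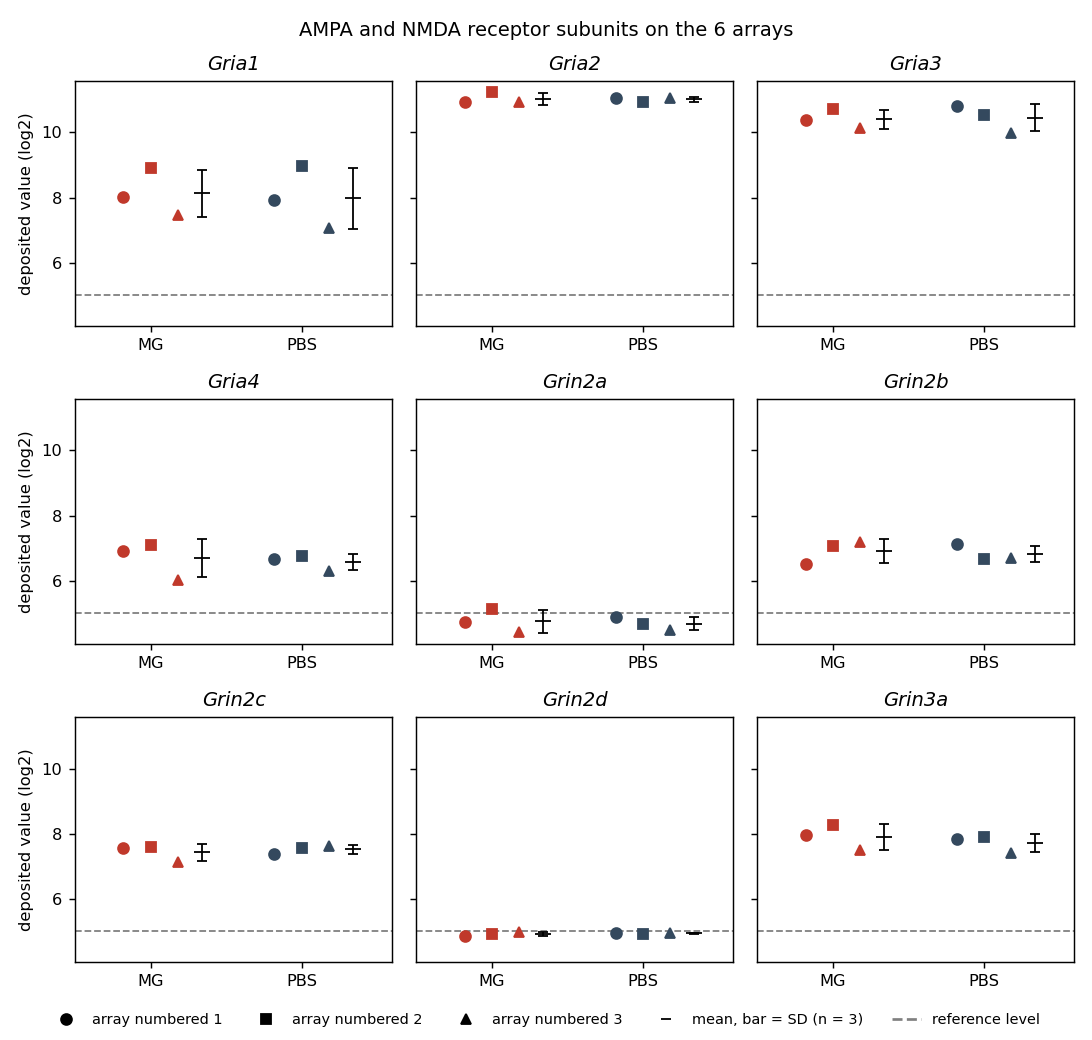
Deposited log2 values (vertical axis) of the 9 measured subunits, MG left and PBS right, with 1 symbol per array number, the mean and SD of 3 arrays as a bar, and the reference level of 5.03 as a dashed line. Grin2d lies under the line and Grin2a too on all but 1 array (MG 2, at 5.14), Gria1 spreads from 7.09 to 8.96, and MG and PBS overlap in every panel.

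Gria1 encodes GluA1, the subunit most tied to activity-dependent insertion of AMPA receptors at synapses. Its values were 8.03, 8.91 and 7.47 in MG cultures 1, 2 and 3, and 7.92, 8.96 and 7.09 in PBS cultures 1, 2 and 3. In each group the culture numbered 2 was highest and that numbered 3 lowest, with a range of 1.44 in MG and 1.87 in PBS. The means were 8.13 ± 0.72 in MG and 7.99 ± 0.94 in PBS (SD, n = 3 each), so the log2 difference was 0.15 (standard error 0.50). The 95% confidence interval, from -0.997 to 1.29, covers folds from 0.501 to 2.44. With the replicate number as a block, the standard error was 0.13 and the interval ran from -0.17 to 0.46. How far down a change in Gria1 could have been seen thus depends on whether the numbers mark pairs, which the labels do not say.

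Gria2 encodes GluA2, the subunit that sets calcium permeability. It had 10.92, 11.23 and 10.93 in MG cultures, and 11.06, 10.93 and 11.06 in PBS cultures. The 6 values lay within 0.31 of each other, the MG culture numbered 2 being the highest. The log2 difference was 0.01 (standard error 0.13), and its interval, -0.29 to 0.31, corresponds to folds from 0.815 to 1.24.

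Gria3, which encodes GluA3, had 10.36, 10.71 and 10.13 in MG cultures, and 10.81, 10.53 and 10.00 in PBS cultures. The cultures numbered 3 were the lowest of both groups. Its log2 difference was -0.05 (standard error 0.23, interval -0.58 to 0.49). Gria4 encodes GluA4, a subunit with fast kinetics that is prominent early in development. Its values were 6.94, 7.12 and 6.04 in MG cultures, and 6.67, 6.78 and 6.31 in PBS cultures, again lowest in those numbered 3. Both the highest and the lowest Gria4 value came from MG cultures. The log2 difference of Gria4 was 0.11 (standard error 0.28, interval -0.53 to 0.75). Without MG replicate 3 it was 0.44 (unadjusted p = 0.0346, adjusted p = 0.9995 in limma).

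Among the NMDA subunits, Grin2b encodes GluN2B, the GluN2 subunit that predominates in the embryonic and newborn brain. It had 6.52, 7.07 and 7.19 in MG cultures, and 7.13, 6.67 and 6.73 in PBS cultures. The order of the numbers differed between the groups, the culture numbered 1 being lowest in MG and highest in PBS. The log2 difference was 0.08 (standard error 0.21, interval -0.39 to 0.56). A second probe set of Grin2b read between 4.31 and 4.48 in MG and between 3.70 and 4.27 in PBS, under the reference level, so that the detection of Grin2b rests on 1 of its 2 probe sets. With both probe sets averaged, the log2 difference was 0.24 (standard error 0.17, adjusted p = 0.9998 in limma).

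Grin2c encodes GluN2C, which is known from cerebellar granule cells and from astrocytes and gives channels with weak magnesium block. It had 7.57, 7.61 and 7.14 in MG cultures, and 7.38, 7.58 and 7.63 in PBS cultures. The MG culture numbered 3 was below all others. The log2 difference was -0.09 (standard error 0.16, interval -0.46 to 0.28). Its second probe set read between 4.78 and 5.12 in MG and between 4.79 and 4.98 in PBS, close to the reference level, so that the 2 probe sets disagreed here too.

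Grin3a encodes GluN3A, a subunit that lowers calcium entry and binds glycine, and is most abundant in the early postnatal brain. Its values were 7.97, 8.27 and 7.50 in MG cultures, and 7.84, 7.91 and 7.41 in PBS cultures. The highest value was from MG culture 2, yet the MG culture numbered 3 lay below the PBS cultures numbered 1 and 2, so the groups overlapped. The means were 7.91 ± 0.39 in MG and 7.72 ± 0.27 in PBS (SD, n = 3 each). The log2 difference of 0.19 (standard error 0.22, interval -0.32 to 0.70) was the farthest from 0 among the 9 subunits (unadjusted p = 0.408, adjusted p = 0.9998 in limma).

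Grin2a encodes GluN2A, the subunit that joins NMDA receptors as synapses mature. It had 4.77, 5.14 and 4.44 in MG cultures, and 4.92, 4.70 and 4.51 in PBS cultures, with 1 of 6 arrays above the reference level. Grin2d encodes GluN2D, which gives slowly closing channels and is found in the early brain and in interneurons. Its values started at 4.88 in MG and at 4.94 in PBS and lay under the reference level on every array, and its second probe set was lower. Differences of these 2 genes are between signals near background and are not read as differences in expression. A transcript level too low for the probe set to register cannot be told from none.

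Across the 9 subunits, 6 had higher and 3 had lower means after MG, with a median log2 difference of 0.07. The count includes Grin2a and Grin2d, which were below the reference level, and the median is the value of Grin2a itself, so neither is read as a direction of the receptor genes. Over all genes tested, 53.8% had higher means, 46.2% had lower ones and the median was 0.01. The 3 with lower means were Gria3, Grin2c and Grin2d, of which Grin2d turned to 0.024 with quantile normalisation and to 0.016 with median centring. Unadjusted p-values in limma ran from 0.408 to 0.955, none under 0.05, where 3.21% of genes tested were.

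**Figure D2:**
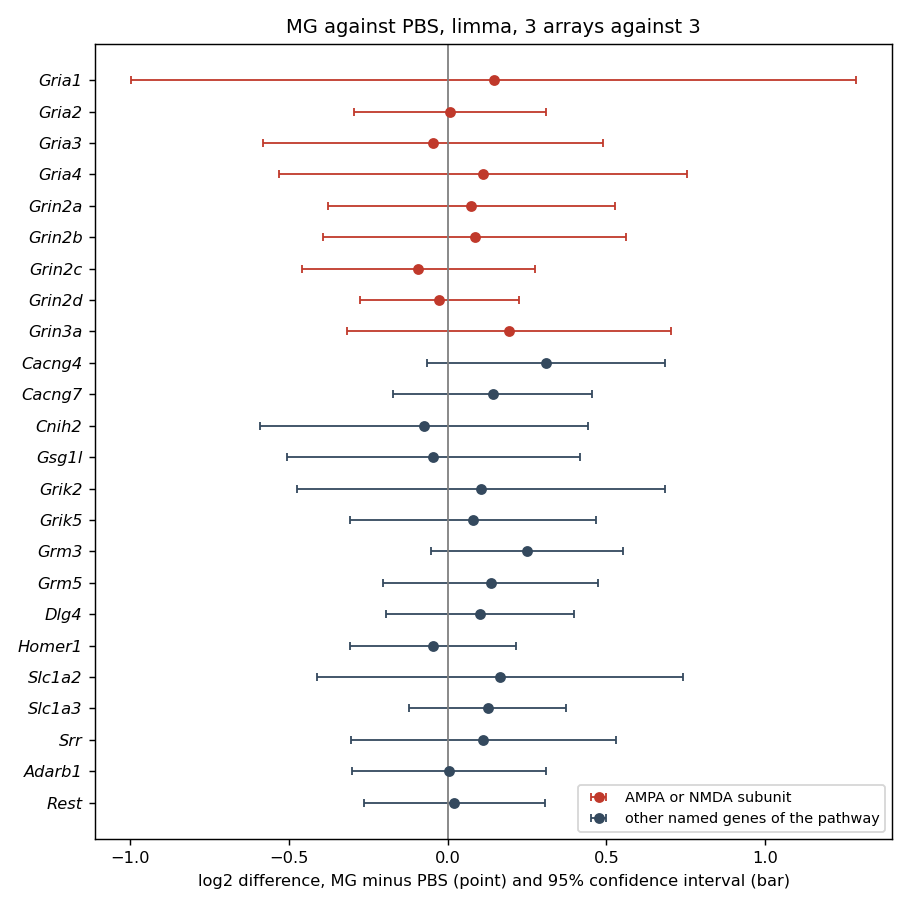
Log2 difference, MG minus PBS (horizontal axis), with its 95% confidence interval for the 9 subunits and 15 other genes of the pathway. Every interval shown includes 0, and that of Gria1, from -0.997 to 1.29, is the widest. Shisa9 (interval 0.02 to 1.53) and Nptx1 (-1.27 to -0.033), named after their values were seen, are not shown.

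The spread between cultures of 1 group differed widely among the subunits. The pooled SD within groups was 0.84 for Gria1, larger than that of 99.7% of the 13672 genes above the reference level, whose median was 0.18. Gria4 followed with 0.45 (94.7%), then Gria3 with 0.36 (89.4%), Grin3a with 0.34 (87.4%) and Grin2b with 0.31 (84.1%). Grin2c had 0.21 (61.6%) and Gria2 0.14 (32.7%). From the lowest to the highest of the 6 cultures, Gria1 ranged 3.66-fold, Gria4 2.13-fold and Gria2 1.24-fold. With 1 array per animal, the spread between animals, between cultures and between arrays cannot be told apart.

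**Figure D3:**
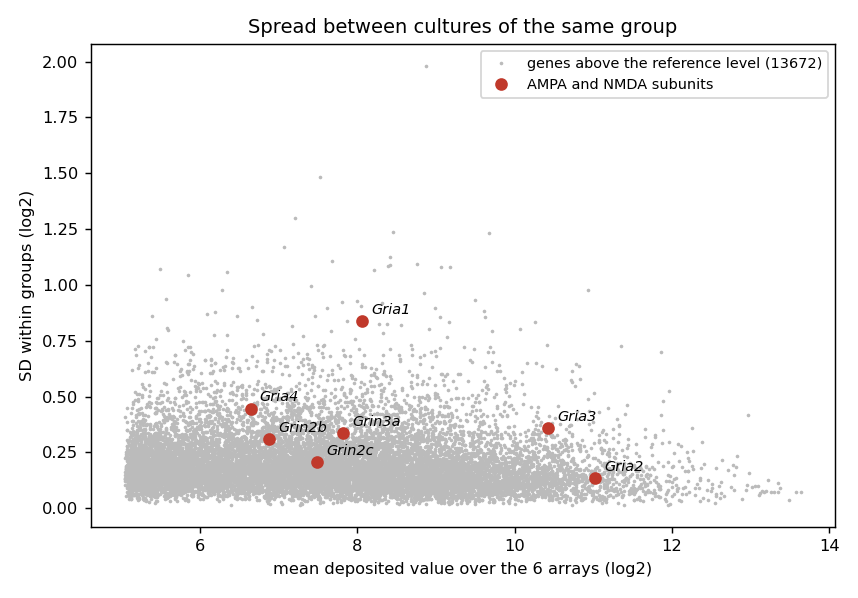
Pooled SD within groups (vertical axis, log2) against the mean deposited value over the 6 arrays (horizontal axis, log2), 1 point per gene whose group means both passed the reference level, with the subunits in red. Gria1, at 0.84, lies above nearly all genes of its level, while Gria2, at 0.14, lies among the bulk.

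Gria1, Gria3, Gria4, Grin3a and Grin2a were lowest on the array numbered 3 in both groups, 5 of 9 subunits, against 21.2% of all genes tested. Among those above the reference level it was 4 of 7, against 23.6%. The array numbered 3 stood below the mean of the other two by these amounts on the log2 scale: Gria1 differed by -0.999 in MG and -1.35 in PBS, Gria4 by -0.99 in MG and -0.41 in PBS, Grin3a by -0.63 in MG and -0.46 in PBS, and Gria3 by -0.41 in MG and -0.67 in PBS. Gria2 differed by -0.15 in MG and 0.07 in PBS. MG culture 2 was the highest of its group for 7 of 9 subunits, against 26.1% of all genes tested. Both counts were made after the values were seen.

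The means of oligodendrocyte precursor, astrocyte and neuron markers were also lowest on the arrays numbered 3. So were those of endothelial and ependymal markers, of which 2 of 8 and 4 of 8 were above the reference level. That of mature oligodendrocyte markers was lowest there in MG only. Singly, 7 of 10 precursor, 7 of 9 astrocyte and 2 of 14 neuron markers were lowest there in both groups, against 21.2% of all genes tested. Olig2, a precursor marker, was instead highest on the array numbered 3 in both groups (12.88 in MG and 12.81 in PBS). The mean of 10 oligodendrocyte precursor markers, relative to the 6 arrays, was 0.37, 0.32 and -0.47 in MG arrays 1, 2 and 3, and -0.06, 0.16 and -0.32 in PBS arrays 1, 2 and 3. Its uncentred mean ran from 8.98 to 9.83 in MG and from 9.13 to 9.61 in PBS. The 9 astrocyte markers stood at -0.36 on both arrays numbered 3 and between 0.00 and 0.26 elsewhere. The 7 mature oligodendrocyte markers stood at 0.36, -0.08 and -0.15 in MG arrays 1, 2 and 3, and at -0.17, 0.15 and -0.11 in PBS arrays 1, 2 and 3. The mean of the 14 neuron markers moved less, from -0.04 to 0.08 in MG and from -0.09 to 0.04 in PBS. Single neuron markers moved in opposite directions. Gad2 was highest on the array numbered 3 in both groups (7.45 in MG and 6.83 in PBS). Dcx and Nefl were lowest there in both groups. The median range over the 6 arrays was 0.66 for neuron markers and 0.70 for astrocyte markers. It was 0.46 for all genes above the reference level. In these bulk samples, fewer cells of a type and less RNA per cell cannot be told apart, and the part of these markers or of the replication genes in the levels of the subunits was not tested. Without both arrays numbered 3, the log2 difference was 0.03 for Gria1, 0.08 for Gria2, -0.13 for Gria3, 0.30 for Gria4 and 0.25 for Grin3a. In the same fit it was -0.11 for Grin2b and 0.11 for Grin2c, both of opposite sign to the fit of all 6 arrays.

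**Figure D4:**
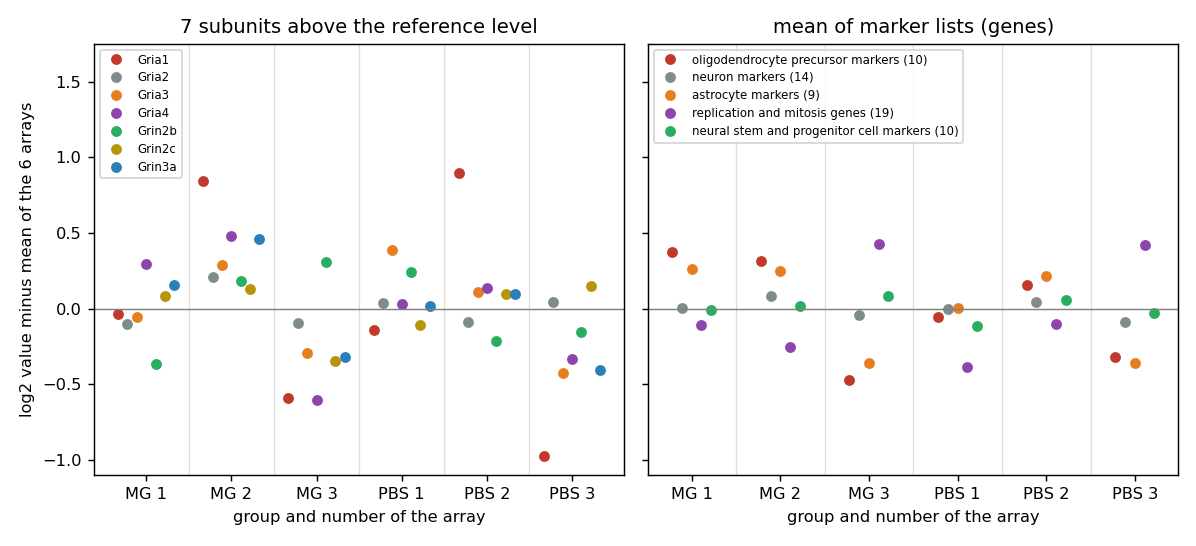
Log2 value minus the mean of the 6 arrays (vertical axis) on each array (horizontal axis, MG before PBS), for the 7 subunits above the reference level (left) and for the mean of 5 marker lists (right, number of genes in brackets). On both arrays numbered 3, Gria1, Gria3, Gria4 and Grin3a are below 0, as the means of oligodendrocyte precursor, astrocyte and, by less, neuron markers are. The mean of replication and mitosis genes is above 0 there.

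The genes with the pattern closest to a subunit were found by the root mean square difference of centred log2 values over the 6 arrays, among 12571 named genes above the reference level. For Gria3 they were Itm2a (0.04), Vegfa, a growth factor for blood vessels (0.05), and Hnmt, an enzyme that inactivates histamine (0.08). For Grin3a they were Nmnat2, an enzyme of NAD synthesis (0.03), the ephrin receptor gene Epha5 (0.05) and Ticam1, an adaptor of Toll-like receptors (0.06). For Gria4 they were Csmd1 (0.05), the calsyntenin gene Clstn3 (0.06) and Rnu11, a small nuclear RNA of the minor spliceosome (0.07). For Grin2b they were Bbof1 (0.07), the clock gene Npas2 (0.08) and Pias3, a SUMO ligase (0.08). For Gria1 the differences were larger: Ankrd34c came first (0.12), followed by Ptgs2, an enzyme of prostaglandin synthesis (0.28), and Bves (0.28). Ankrd34c passed the reference level by its group means, but read under it on the arrays numbered 3 (4.57 in MG and 4.43 in PBS). The measure is not scaled by the range of a gene, and Gria1 ranged over 1.87, the widest of the subunits. Its differences are therefore not set against those of the other subunits. With 6 arrays and so many genes, close matches are found for most patterns.

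The wider glutamate pathway was described with 6 lists of 81 genes, of which 74 were measured and 61 had both group means above the reference level. None passed the adjusted test in either direction. Means were higher after MG for 50 genes and lower for 24, with a median log2 difference of 0.10. Over all genes tested 53.8% were higher, with a median of 0.01. Among genes above the reference level 56.9% were higher. The count includes genes below that level. Relative to the 6 arrays, the mean of the 74 was 0.08, 0.09 and -0.08 in MG arrays 1, 2 and 3. In PBS arrays 1, 2 and 3 it was -0.01, 0.05 and -0.13. Neither count nor median is read as a direction of the pathway. The groups did not overlap for 2 of the 74, Camk2b and Slc1a3, where 7.34% of genes tested did not. An unadjusted p under 0.05 was given to 2 of the 74, Shisa9 and Nptx1, against 3.21% of genes tested.

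AMPA receptors are carried and tuned by auxiliary proteins. Of 12 such genes, 11 were above the reference level, Cacng3 being the other one, and 7 had higher and 5 lower means after MG. The TARP genes Cacng4 and Cacng7, whose proteins escort AMPA receptors to the membrane, averaged 10.14 ± 0.29 and 10.77 ± 0.11 in MG, and 9.83 ± 0.10 and 10.63 ± 0.18 in PBS (SD, n = 3 each). The log2 difference was 0.31 (standard error 0.16) for Cacng4 and 0.14 (standard error 0.14) for Cacng7. Cnih2, a cornichon that slows channel closing, differed by -0.08 (standard error 0.22), and Gsg1l, an auxiliary subunit that dampens the current, by -0.05 (standard error 0.20). Shisa9, which encodes another auxiliary subunit, had 6.77, 6.95 and 5.57 in MG cultures, and 5.69, 5.75 and 5.52 in PBS cultures. The MG cultures numbered 1 and 2 of Shisa9 lay over 1 log2 unit above all others, and only these 2 passed the stricter reference of 6.04. The other values lay between that and the reference level of 5.03. Its log2 difference was 0.77 (standard error 0.33, unadjusted p = 0.0455, adjusted p = 0.9998 in limma). Without MG replicate 3 it was 1.20 (adjusted p = 0.398), and without MG replicate 2 it was 0.52.

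Of 8 kainate and delta receptor genes, including the kainate auxiliary Neto genes, 7 were above the reference level and 7 had higher means after MG. Grik2, which encodes the kainate subunit GluK2, differed by 0.10 (standard error 0.25), and Grik5, which encodes GluK5, by 0.08 (standard error 0.17). Of 7 metabotropic receptor genes, 4 were above the reference level, and Grm6, Grm7 and Grm8 were not. Grm3, a receptor that lowers cyclic AMP, had 10.62, 10.59 and 10.35 in MG cultures, and 10.28, 10.39 and 10.15 in PBS cultures. The 2 highest values of Grm3 were from MG, while the third MG value lay within the PBS range. The log2 difference was 0.25 (standard error 0.13, unadjusted p = 0.0946, adjusted p = 0.9998 in limma) for Grm3 and 0.14 (standard error 0.15) for Grm5, which couples to phospholipase C.

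Of 24 genes of receptor scaffolds and trafficking, 20 were above the reference level and 15 had higher means after MG. Dlg4, which encodes the postsynaptic scaffold PSD-95, differed by 0.10 (standard error 0.13), and the scaffold gene Homer1 by -0.05 (standard error 0.11). Nptx1, a secreted pentraxin that clusters AMPA receptors, had 6.78, 7.38 and 6.67 in MG cultures, and 8.01, 7.70 and 7.08 in PBS cultures. The 2 highest values of Nptx1 were from PBS and the 2 lowest from MG, and its log2 difference was -0.65 (standard error 0.27, unadjusted p = 0.0412, adjusted p = 0.9998 in limma). Camk2b, a subunit of the calcium kinase that phosphorylates AMPA receptors, had 8.18, 8.25 and 8.27 in MG cultures, and 8.42, 8.35 and 8.28 in PBS cultures, a log2 difference of -0.12 (standard error 0.11).

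Of 15 genes of glutamate and co-agonist supply, 12 were above the reference level, and the vesicular transporter genes Slc17a6 and Slc17a7 were not. Slc1a3, which encodes the glial glutamate transporter GLAST, had 12.12, 12.19 and 12.14 in MG cultures, and 12.05, 12.04 and 11.98 in PBS cultures. All 3 MG values of Slc1a3 lay above the PBS values, by a log2 difference of 0.13 (standard error 0.11, adjusted p = 0.9998 in limma). The transporter gene Slc1a2, which encodes GLT-1, differed by 0.16 (standard error 0.25), and Srr, whose enzyme makes the co-agonist D-serine, by 0.11 (standard error 0.18). Adarb1, whose enzyme edits the Gria2 transcript, was above the reference level on every array and differed by 0.0045 (standard error 0.13), turning to -0.016 with quantile normalisation. Rest, which encodes a repressor of neuronal genes, differed by 0.02 (standard error 0.12). Editing of the Gria2 transcript itself was not measured by these arrays.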

How the data were processed

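Per the design text, RNA from 6 mice was hybridised to Affymetrix Mouse Gene 2.0 ST arrays, 1 array per animal. The values deposited by the authors are 1 number per probe set and array and were read as log2 from their range (0.73 to 13.8). Per the submitters' processing notes Partek 6.6 was used. The sources used here give neither the genome build nor how background and arrays were adjusted. Array medians over 41345 probe sets ran from 5.25 to 5.42, and the number of arrays limits the precision.

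Probe sets were named through the platform annotation, with symbols updated by gene ID through RefSeq (GRCm38.p6). Of them, 23521 named 1 gene, 1814 several and 16010 none. The 22180 genes with a probe set of their own were tested, each by the probe set with the highest mean. MG was compared with PBS in limma 3.58.1 (R 4.3.3, lmFit and eBayes, two-sided, no covariate), with Benjamini-Hochberg adjustment over all genes and a threshold of 0.05. The steps were tested on simulated data. Figures used matplotlib 3.10.9.

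The subunits, the gene lists and the tests were chosen with earlier results of these data known. Named were all subunits, 15 pathway genes picked for their role, any list gene past the adjusted threshold (there were 0), and the 3 genes with the closest pattern to each subunit above the reference level whose values ranged over at least 0.5. The pattern search left out gene models, microRNAs and small nucleolar RNAs. Camk2b, Shisa9, Nptx1 and Grin3b were named after their values were seen.

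Alternatives left out dim genes, tested all probe sets singly or averaged them per gene, rescaled the arrays by quantiles or medians, changed the moderation (trended, robust), weighted the arrays, blocked on the replicate number, left out the arrays numbered 3 or each array in turn, or raised the reference level. The correlation, across all genes tested, of deviations from the group means was 0.22 for the arrays numbered 1, 0.04 for those numbered 2 and 0.45 for those numbered 3, and 0.33, 0.13 and 0.63 across the genes above the reference level. MG array 1 correlated better with PBS array 2 than with PBS array 1 in both sets. The labels name nothing that a number shares, and the numbers were not taken to pair the animals.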

Additional observations from a re-analysis of the deposited data

How the results depend on the processing

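No setting gave a subunit or a listed gene past the adjusted threshold. The subunits' adjusted p stayed at 0.9992 or above, and the only subunit at an unadjusted p under 0.05 was Gria4 without MG replicate 3. The number of genes at an unadjusted p under 0.05 in limma was 712 of 22180. Of the same number tested it was 1163 with array weights and 416 without PBS replicate 1. With dim genes left out it was 276 of 14123 genes. With each probe set tested singly it was 1288 of 41345 probe sets. Of 142 other values of subunits, 122 kept their direction and 20 turned sign. Of 304 of other named genes, 278 kept it and 26 turned. Many of these values could not turn. Leaving out dim genes, testing all probe sets, changing the moderation and blocking left the log2 difference of the main fit as it was. Averaging did so for genes with 1 probe set. The counts are therefore not read as a measure of stability. Grin2a and Grin2d had no value with dim genes left out. Quantile normalisation gave 0.024 for Grin2d and -0.016 for Adarb1, and median centring 0.016 for Grin2d. With array weights Grin2c was 0.036, Gsg1l 0.065, Adarb1 -0.0049 and Rest -0.026. Without both arrays numbered 3, Grin2b was -0.11, Grin2c 0.11, Gsg1l 0.20, Grik5 -0.0033, Adarb1 -0.027 and Rest -0.047.

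With 1 array left out in turn, the log2 difference ran from -0.31 to 0.63 for Gria1, -0.095 to 0.061 for Gria2, -0.27 to 0.14 for Gria3 and -0.10 to 0.44 for Gria4. It ran from -0.10 to 0.25 for Grin2a, -0.050 to 0.29 for Grin2b, -0.18 to 0.057 for Grin2c and -0.056 to 0.0058 for Grin2d, and only Grin3a kept its sign among the 9 (0.013 to 0.40). Among the other genes it ran from -0.30 to 0.087 for Cnih2, -0.22 to 0.19 for Gsg1l, -0.14 to 0.31 for Grik2, -0.082 to 0.16 for Grik5, -0.085 to 0.0017 for Homer1, -0.014 to 0.43 for Slc1a2, -0.026 to 0.27 for Srr, -0.069 to 0.11 for Adarb1 and -0.058 to 0.060 for Rest. Leaving out 1 array gave 0.52 to 1.20 for Shisa9 (unadjusted p = 3.59e-05 to 0.165, adjusted p from 0.398 upward) and -0.91 to -0.45 for Nptx1 (unadjusted p = 0.00607 to 0.143). With probe sets averaged, Grin2b was 0.24 in place of 0.08, the average taking in its second probe set, which read under the reference level. The causes of the other shifts were not tested. With the replicate number as a block, the differences stayed as they were, the standard error of Gria1 was 0.13 in place of 0.50, and 0 subunits passed. All 9 calls stayed short of the threshold under the block. MG array 2 correlated better with PBS array 1 (0.23) than with PBS array 2 (0.04). The 3 arrays per group bound what could be seen, and signal near the reference level does so for Grin2a and Grin2d.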

Other observations

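Grin3b, which encodes the GluN3B subunit and is not on the list of subunits, was singled out after its values were seen. It had 5.52, 5.54 and 5.46 in MG cultures, and 5.76, 5.74 and 5.73 in PBS cultures. All MG values were below all PBS values, and each group lay within 0.08 log2 units. The log2 difference was -0.24 (standard error 0.11, interval -0.48 to 0.01, unadjusted p = 0.0577, adjusted p = 0.9998 in limma). Such separation was seen in 7.34% of genes tested. Grin3b was above the reference level of 5.03 on all arrays and under the stricter one of 6.04.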
